A study of Mus musculus with 8 samples.

Results

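The genes described here are 7 enzymes of heme synthesis (Alas1, Alas2, Alad, Urod, Cpox, Ppox and Fech), the heme-degrading enzyme Hmox1, and Hdhd3, the gene beside Alad on chromosome 4. They were chosen by symbol and are represented by every probe set that the platform annotation gives to 1 of these symbols alone, which makes 19 of 45037 probe sets and 9 of 18193 genes. The data are 8 Affymetrix expression arrays of RNA from mouse trigeminal ganglia, where facial sensory neurons have their cell bodies: 4 of daDREAM transgenic mice, all tagged tg16 in their titles, and 4 of control mice. Both groups are C57B/6XCBA, and the labels give adult male mice without an age. daDREAM is a mutant of the calcium-regulated transcriptional repressor DREAM, the product of Kcnip3, made to stay active. The sources used here do not give the promoter that drives the transgene, nor whether an array holds 1 animal or a pool, nor whether the control mice were littermates of the transgenic mice on this mixed background, so errors and p-values describe the spread between these samples only.

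Heme is built in a chain of steps that starts and ends in the mitochondrion. Alas1, in most tissues, or Alas2, in red cell precursors, makes aminolevulinic acid; Alad joins aminolevulinic acid molecules into the pyrrole porphobilinogen in the cytosol; Uros, Urod, Cpox and Ppox act on the ring and its side chains; and Fech inserts iron. Alad is a zinc enzyme known as a target of lead, and in mice it is the Lv locus, at which enzyme activity differs between inbred strains. Hmox1 opens the heme ring and is known to be induced by heme and by oxidative stress. The product of Hdhd3 belongs to the haloacid dehalogenase-like hydrolases.

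Alad and Hdhd3, the 2 members that differed most, are neighbours on the same strand of chromosome 4, so the 250 bases before the outermost start of each are shown. They are RefSeq sequences of build GRCm38.p6, minus strand, at chr4:62520064-62520313 for Alad and chr4:62502201-62502450 for Hdhd3, and the sequence table holds 2 starts for Alad and 1 for Hdhd3. Capitals mark GTCA or its complement TGAC, the core of the element that DREAM is known to bind, and GGGCGG, the GC box.
Alad: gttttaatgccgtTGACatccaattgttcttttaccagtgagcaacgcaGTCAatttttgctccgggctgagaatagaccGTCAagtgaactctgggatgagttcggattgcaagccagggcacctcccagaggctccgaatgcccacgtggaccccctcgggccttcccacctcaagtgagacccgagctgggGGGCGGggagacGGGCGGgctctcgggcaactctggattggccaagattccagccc
Hdhd3: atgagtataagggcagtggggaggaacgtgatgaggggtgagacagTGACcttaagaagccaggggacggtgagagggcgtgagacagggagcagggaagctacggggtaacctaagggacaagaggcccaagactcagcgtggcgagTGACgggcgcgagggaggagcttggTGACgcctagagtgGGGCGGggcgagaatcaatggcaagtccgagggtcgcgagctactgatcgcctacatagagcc
Each of these windows held 3 matches to GTCA on either strand, as did the windows of Urod and Ppox, not shown. Of all 32851 promoter windows 80.2% held at least 1, and the share with 3 was not computed. The GC box was found 2 times for Alad and 1 time for Hdhd3, against 32.7% of all windows with at least 1 match. G and C made up 58.4% of the Alad window and 60.8% of the Hdhd3 window, against a median of 52.4%. Of 4 further patterns, searched on both strands, TGACNNNGC (10.2% of all windows), AGATAA (9.99%) and TATAAA (12.4%) had no match in either window, and CACGTG (6.02%) had 1 match, for Alad. TGACNNNGC contains TGAC and so overlaps with the core searched first. The window at the inner Alad start, which overlaps the outer one, held 1 match to GTCA and 6 to the GC box. These 6 include the 2 GC boxes of the outer window, and the remaining matches overlap each other in pairs. The Alas2 window, not shown, held 1 AGATAA, the pattern of GATA factors, and 1 TATAAA. Windows were found for 7 of the 9 members, and a match describes letters only.

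The arrays were alike in overall signal, with medians from 7.09 to 7.13 and correlations from 0.983 to 0.996, but they differed in genes of other tissues and in sex-linked RNA. Xist, the RNA of the inactive X chromosome in females, read 11.51 on daDREAM replicate 4 and 10.20 and 11.72 on control replicates 3 and 4, against 6.10 to 6.49 on the others, although the labels give males. The pituitary gene Gh was highest on daDREAM replicates 3 and 4 (12.50 and 13.43) and control replicate 3 (11.15). Murine 18S control probes were highest on control replicates 1 and 4, and the muscle actin Acta1 on control replicates 1 and 3. The glial filament gene Gfap read 10.77 to 11.24 on daDREAM arrays and 8.29 to 10.22 on control arrays, and its part in the other differences was not tested. Sensory neuron markers averaged 11.51 to 11.62 on daDREAM arrays and 11.43 to 11.62 on control arrays over 13 genes, as a check of the tissue. Kcnip3 read 10.26 ± 0.07 on daDREAM arrays and 10.23 ± 0.15 on control arrays (SD, n = 4 each), and the sources used here do not say whether its probe set reads the transgene.

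Alad was 2.50-fold higher in daDREAM ganglia and Hdhd3 2.00-fold higher, while the enzymes before and after Alad in the pathway differed by 1.36-fold or less at the probe set that represents each. Values are log2 expression made with RMA (background correction, quantile normalization over arrays and a summary per probe set), a gene is represented by its brightest probe set, and differences are daDREAM minus control. The contrast between these groups served in choosing the members, so their differences are given with a standard error (SE) and no p-value, and support nothing beyond themselves. With littermate status not given, a difference in strain background at a locus and the transgene cannot be told apart. In whole tissue, fewer cells of a type and less RNA per cell cannot be told apart.

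The brightest Alad probe set read 10.47, 10.24, 10.26 and 10.59 on daDREAM arrays 1 to 4, against 8.94, 9.24, 9.07 and 9.02 on control arrays 1 to 4. The lowest daDREAM value, 10.24, lay well above the highest control value, 9.24. The difference was 1.32 (SE 0.10), from means of 10.39 ± 0.17 in daDREAM and 9.07 ± 0.13 in control ganglia (SD, n = 4 each). The other, dimmer Alad probe set read 8.55, 8.27, 8.16 and 8.21 on daDREAM arrays, against 7.11, 7.41, 7.26 and 7.40 on control arrays. Its groups were also apart, with a difference of 1.00 (SE 0.10), or 2.00-fold.

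Hdhd3, with 1 probe set, read 8.61, 8.39, 8.26 and 8.32 on daDREAM arrays, against 7.23, 7.58, 7.46 and 7.32 on control arrays. Its difference was 1.00 (SE 0.10), with means of 8.40 ± 0.15 in daDREAM and 7.40 ± 0.15 in control ganglia (SD, n = 4 each). Its size was close to that of the dimmer Alad probe set, and the groups did not overlap.

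**Figure D1:**
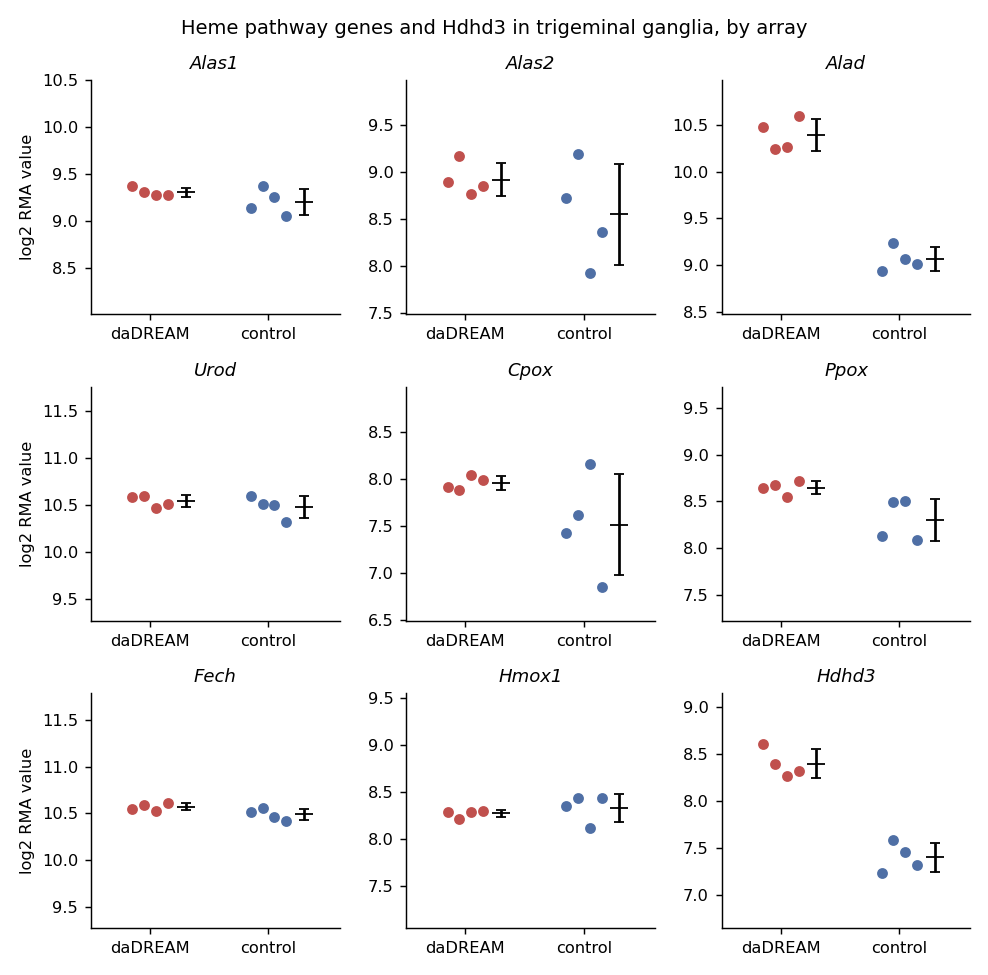
Log2 RMA values of the 9 genes on each array, at the brightest probe set of each gene; points are arrays (daDREAM left, control right), bars are mean and SD of 4 arrays, and every panel spans the same number of log2 units. Alad and Hdhd3 are split by group, Ppox narrowly so, and the other 6 genes overlap.

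Leaving out arrays moved these values little. Without 1 array at a time the Alad difference lay between 1.26 and 1.38 and that of Hdhd3 between 0.93 and 1.06. Without the 3 arrays with high Xist it was 1.23 for Alad and 1.02 for Hdhd3, and with the 3 arrays highest in Gh left out it was 1.29 and 1.12. Without the 2 control arrays with the most 18S it was 1.24 and 0.88, and without the 2 with high Acta1 it was 1.26 and 0.95.

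The 2 enzymes that can open the pathway did not separate the groups. Alas1, the form of most tissues, read 9.37, 9.31, 9.27 and 9.27 on daDREAM arrays, against 9.14, 9.37, 9.25 and 9.05 on control arrays. Its difference was 0.10 (SE 0.08), and its second probe set read -0.07 (SE 0.08), the other way. Alas2, the form of red cell precursors, read 8.89, 9.17, 8.77 and 8.85 on daDREAM arrays, against 8.72, 9.19, 7.93 and 8.36 on control arrays. Both the highest and the lowest Alas2 value were found among control arrays, and control replicate 3 was lowest. Its difference of 0.37 (SE 0.21) became 0.16 without that array, 0.58 without control replicate 2, 0.15 without the 2 arrays with high Acta1 and -0.01 without the 3 arrays with high Xist.

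Of the enzymes after Alad, Uros is no member but belongs to the same chain: it read 9.48 to 9.52 on daDREAM arrays and 9.48 to 9.51 on control arrays, a difference of 0.00 (SE 0.06, limma adjusted p = 1 over all genes). Urod, which removes carboxyl groups from the ring, read 10.59, 10.60, 10.47 and 10.51 on daDREAM arrays, against 10.60, 10.51, 10.50 and 10.32 on control arrays. Both of its probe sets gave a difference of 0.06 (SE 0.08 and 0.09).

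Cpox, which oxidises coproporphyrinogen, read 7.92, 7.88, 8.05 and 7.99 on daDREAM arrays, against 7.43, 7.62, 8.16 and 6.85 on control arrays. The daDREAM values lay close together inside the wide control range. The difference was 0.45 (SE 0.21), with 0.28 (SE 0.12) at a second probe set and 0.12 (SE 0.11) at the dimmest, which read 4.32 in daDREAM and 4.20 in control ganglia, near background. Without control replicate 4, which had the most 18S signal, the first became 0.22, without control replicate 3 it became 0.66, and without both control arrays with the most 18S it became 0.07.

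Ppox, which catalyses the last oxidation before iron enters, read 8.64, 8.68, 8.55 and 8.72 on daDREAM arrays, against 8.13, 8.49, 8.50 and 8.09 on control arrays. The groups were narrowly apart, and the difference was 0.35 (SE 0.10). Control replicates 1 and 4, the lower pair, were the arrays with the most 18S signal, and without them the difference was 0.15; the part of that signal in the result was not tested. The 2 other Ppox probe sets read -0.09 (SE 0.10) and -0.59 (SE 0.13). The last of these was lower on every daDREAM array (4.56 to 5.14) than on any control array (5.27 to 5.70), at a level near background.

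Fech, which inserts iron, was bright and even, with 10.55, 10.59, 10.53 and 10.61 on daDREAM arrays and 10.52, 10.56, 10.46 and 10.42 on control arrays. Its 4 probe sets gave differences of 0.08, 0.08, 0.15 and 0.22, the last at the dimmest probe set, and the groups overlapped at each. Hmox1, which breaks heme down, read 8.28, 8.21, 8.29 and 8.30 on daDREAM arrays, against 8.35, 8.43, 8.11 and 8.43 on control arrays. Its difference of -0.06 (SE 0.08) was the only one below 0 among the 9 genes at their brightest probe sets.

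**Figure D2:**
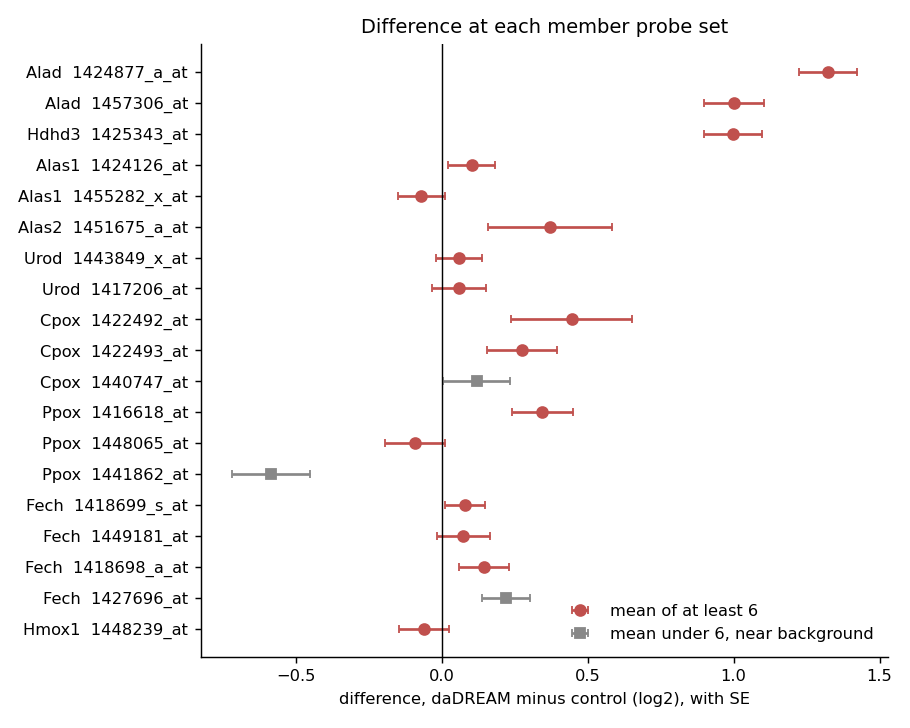
Difference between daDREAM and control means at each of the 19 probe sets (log2, horizontal axis) with the SE of the limma fit; grey squares are the 3 probe sets with a mean under 6. The 2 Alad probe sets and Hdhd3 lie at 1.00 to 1.32, the others between -0.59 and 0.45.

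In counts, 2 of the 9 members, Alad and Hdhd3, had a limma adjusted p under 0.05 over all genes, both higher, where such calls made up 2% of all genes (0.984% higher and 1.02% lower). Groups did not overlap in 3 of 9 members, all higher, against 10.7% of all genes (5% higher and 5.73% lower). They did not overlap in 5 of 19 member probe sets, 4 higher and 1 lower, against 11% of all probe sets (5.13% higher and 5.91% lower). Over probe sets, limma called 2.74% (1.42% higher and 1.32% lower). Because this contrast entered the choice of members, nothing is read from these shares. The median difference of the 7 members other than Alad and Hdhd3 was 0.10, against 0.00 over all genes.

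Other than Hdhd3, which was chosen with this contrast in view, the genes around Alad held no call at their brightest probe sets. Over all genes, 2% passed limma. Of the 10 measured genes on each side in RefSeq order, Hdhd3 is the nearest on one side, and of the other 19 neighbours 0 passed limma at their brightest probe sets, here and under 21 alternatives. Pole3, a DNA polymerase epsilon subunit, is the nearest on the other side of Alad and read 9.13, 9.13, 9.19 and 8.93 on daDREAM arrays, against 8.95, 9.15, 8.89 and 8.93 on control arrays (difference 0.12, SE 0.08, limma adjusted p = 0.489). Bspry, the next gene beyond Hdhd3, read 6.93 to 7.09 on daDREAM arrays and 6.96 to 7.15 on control arrays (difference -0.05, SE 0.07, limma adjusted p = 0.769).

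The genes on both outer sides of the pair thus had overlapping groups. 4933430I17Rik, the second gene beyond Alad, was near background at 4.66 in daDREAM and 4.74 in control ganglia. The 19 neighbours ranged from -0.17 (Ambp) to 0.39 (Zfp618), with a median of 0.05. Groups did not overlap in 2 of them, Prpf4 and Zfp618, against 10.7% of all genes. Among all 41 probe sets of these neighbours, 1 passed, against 2.74% of all probe sets. It was a secondary probe set of Cdc26, lower by -0.39 (7.51 in daDREAM and 7.90 in control ganglia, limma adjusted p = 0.0360 over probe sets). The brightest Cdc26 probe set read 0.07. The 41 probe sets ranged from -0.40 to 0.54, and groups did not overlap in 5 of them, against 11% of all probe sets. The highest was a secondary probe set of Rgs3, a regulator of G protein signalling, with 9.87 in daDREAM and 9.33 in control ganglia, groups apart (limma adjusted p = 0.0754 over probe sets); its brightest read 0.22.

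**Figure D3:**
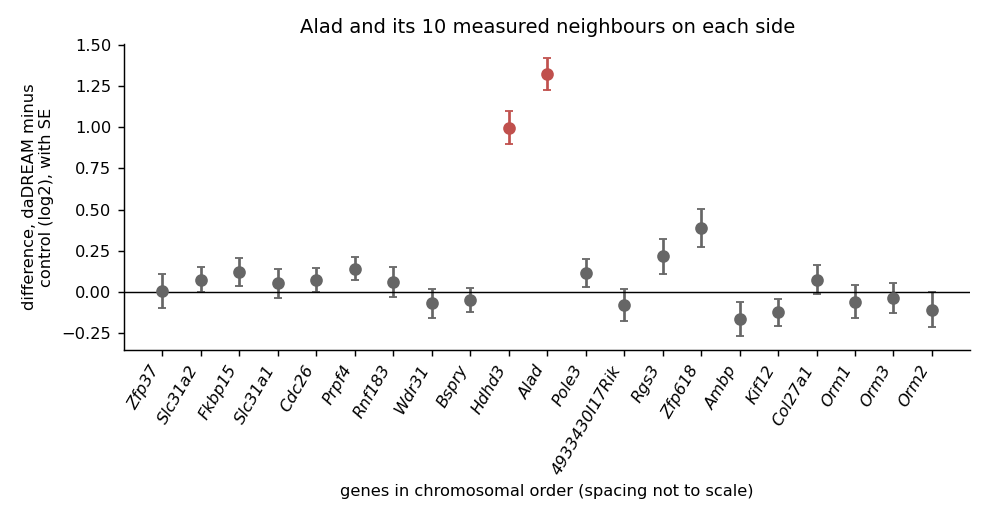
Difference between daDREAM and control means (log2, vertical axis, with SE) for Alad and the 10 measured genes on each side in chromosomal order. Alad and Hdhd3, in red, stand at 1.32 and 1.00, and the 19 others between -0.17 and 0.39.

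Windows of the same kind were taken around the other members, and over all genes 2% passed limma. Of 20 neighbours each, 2 passed around Alas1, 1 around Cpox and 1 around Fech, and 0 around Alas2, Urod, Ppox and Hmox1. These were Wdr82 (-0.36, limma adjusted p = 0.0421) and Pik3r4 (-0.41, 0.0488) near Alas1, Nsun3 (-0.59, 0.0475) near Cpox and Spink10 (0.89, 0.00205) near Fech. Alas1, Cpox and Fech themselves had overlapping groups.

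Over the 8 arrays, the 2 Alad probe sets correlated with Hdhd3 at r = 0.976 and 0.988 and with each other at 0.969. These values share the difference between groups; for deviations from the group means the same r were 0.561, 0.830 and 0.443, given as descriptions over 8 arrays. The gene most like Alad by Pearson r over 8 arrays was Erdr1 (0.990), followed by Acer3, Slc25a29, Slc15a2 and Plppr1 (0.986 to 0.981), and Hdhd3 ranked 10 of 18192. The most opposed were Scg5 (-0.987), Rpgrip1, Snapc1, Qrich1 and Cldn34c1. The first 5 differed between groups by 1.03 to 2.80 (log2) and the last 5 were lower, Rpgrip1 by -4.63 and Scg5 by -1.02, so the split between groups enters each r. Ppox ranked 483, Fech 1223 and Hmox1 11765 by the same measure.

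Genes that supply the pathway and carry its intermediates had no call. The lists here and below were chosen with earlier results of these data known. Their counts and p-values are therefore descriptions, to be read beside the 2% of all genes that passed limma. Among 10 measured genes, which include Uros, the glycine carrier of mitochondria Slc25a38 and the iron carrier Slc25a37, 0 passed limma, 2 had an unadjusted p under 0.05, and the median difference was 0.06. Over all genes, 18.2% (3307 of 18193) had an unadjusted p under 0.05, the share against which such counts are to be read. The largest in size was Tspo, the outer mitochondrial membrane protein that binds porphyrins, at -0.29 (SE 0.11, limma adjusted p = 0.216). It read 8.37 to 8.75 on daDREAM arrays and 8.54 to 9.01 on control arrays.

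Among genes of heme breakdown, transport and binding, 1 of 15 passed, as lower. Hebp1, a cytosolic protein that binds heme and is the precursor of a chemotactic peptide, read 7.11, 7.01, 7.14 and 7.19 on daDREAM arrays, against 8.12, 8.04, 8.01 and 8.04 on control arrays. It fell 1.92-fold (difference -0.94, SE 0.07, limma adjusted p = 1.97e-05), lower on 4 of 4 daDREAM arrays, and over the alternatives its adjusted p ran from 9.33e-06 to 0.00488. The other 14 genes of the list did not pass, and its median difference was 0.005 (log2).

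In the iron handling list, 1 of 19 passed, as lower. Ceruloplasmin (Cp), a copper ferroxidase, read 9.90, 9.69, 9.53 and 9.95 on daDREAM arrays, against 10.19, 10.56, 10.26 and 10.56 on control arrays (difference -0.63, SE 0.12, limma adjusted p = 0.0176). It fell 1.54-fold. By the same test over probe sets, of its 7 other probe sets 1 also passed, at -0.67, and the rest read from -0.47 to 0.20. The Cp call was lost without daDREAM replicate 2 (adjusted p = 0.0707 by limma), daDREAM replicate 3 (0.0583) or control replicate 2 (0.0513), and with the mean of its probe sets (-0.31, 0.118). Over all alternatives its adjusted p ran from 0.00372 to 0.150. The heavy ferritin chain Fth1 read 14.63 in both groups, with a difference of 0.00 (SE 0.07), and the list's median difference was -0.025.

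None of 10 iron-sulfur cluster assembly genes passed limma, and 4 had an unadjusted p under 0.05. The largest in size was Lyrm4, a partner of the cysteine desulfurase, at -0.50 (SE 0.17, limma adjusted p = 0.161), and the median was 0.12. Of 31 heme proteins and their assembly factors 0 passed and 13 had an unadjusted p under 0.05 (18.2% over all genes); the largest was the guanylyl cyclase subunit Gucy1b1 at 0.56 (SE 0.22, limma adjusted p = 0.232). Of 14 genes of the Nrf2 and Bach1 pathway, which is known to control Hmox1, 0 passed and 3 had an unadjusted p under 0.05. Slc7a11, the cystine transporter, was the largest there at 0.38 (SE 0.10, limma adjusted p = 0.0809), near background in both groups.

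**Figure D4:**
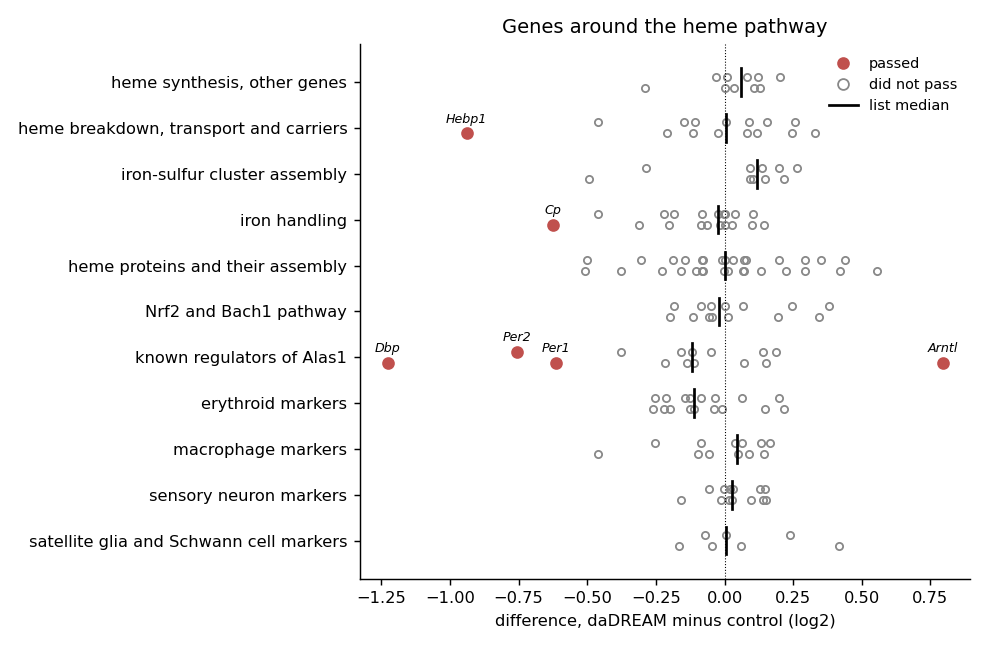
Difference between daDREAM and control means (log2, horizontal axis) of each measured gene in 11 lists around the heme pathway; filled points had a limma adjusted p under 0.05 over all genes, and bars are list medians. Hebp1, Cp, Dbp, Per1 and Per2 lie below 0 and Arntl above 0 among the genes that passed.

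Genes known to regulate Alas1 held 4 calls of 15, 1 higher and 3 lower, against 2% of all genes (0.984% higher and 1.02% lower). All 4 are clock genes, of which this list was built to hold many. Clock, Npas2, Nr1d1 and Nr1d2, also listed, did not pass. Dbp, an output factor of the clock, read 9.04, 9.06, 8.98 and 9.48 on daDREAM arrays, against 9.90, 10.19, 10.79 and 10.59 on control arrays (difference -1.23, SE 0.18, limma adjusted p = 0.00370). Per1 and Per2, repressors of the clock, were lower by -0.62 and -0.76 (limma adjusted p = 0.0406 and 0.0173). The 2 other Per2 probe sets read -0.40 and 0.07 and did not pass, and with the mean of its probe sets Per2 read -0.36 (limma adjusted p = 0.0904). Arntl, its activator, was higher by 0.80 (limma adjusted p = 0.0113), while its second probe set read -0.20. Alas1 overlapped between groups on the same arrays. By limma, Per1 no longer passed without any 1 of daDREAM replicates 1 to 4 or control replicates 2, 3 and 4, and Per2 without daDREAM replicate 1, 2 or 3 or control replicate 4.

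Of all 158 listed genes measured, 6 passed, 1 higher and 5 lower, or 3.80%, against 2% of all genes. Because the lists were chosen with earlier results of these data known, nothing is read from this share. The count of 6 became 3 to 6 without 1 array at a time, with 3 without daDREAM replicate 2 or 3 and 4 without control replicate 4. It was 2 when the 3 arrays highest in Gh were left out. In the marker lists of other cells, 0 of 17 erythroid, 0 of 12 macrophage, 0 of 13 sensory neuron and 0 of 7 satellite glia and Schwann cell genes passed limma, and 2, 2, 0 and 1 had an unadjusted p under 0.05. The mean of the macrophage markers lay between 7.89 and 8.15 on daDREAM arrays and between 7.95 and 8.22 on control arrays. In size the largest of each list were the embryonic globin Hbb-y (-0.26), the haemoglobin scavenger receptor Cd163 (-0.46), the sodium channel gene Scn9a (-0.16) and the glial fatty acid binding protein gene Fabp7 (0.42).

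Alas2 and Cpox each had an SD of 0.54 over control arrays, and Alas2 was set against red cell markers. The mean of 17 erythroid markers lay between 6.19 and 6.30 on daDREAM arrays and between 6.22 and 6.45 on control arrays (r against Alas2 = -0.06, rho = -0.08 over 8 arrays, exact permutation p = 0.880, adjusted 0.880 over 4 relations). That mean lay just above the log2 value of 6 under which a signal was called near background, which limits what this r can show. The r was -0.50 without control replicate 3 and 0.48 without control replicate 4. Adult globins were instead read by 4 bright probe sets that the annotation gives to more than 1 globin gene, so no single gene can be named. Their mean lay between 13.79 and 13.92 on daDREAM arrays and between 13.36 and 13.96 on control arrays.

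Alas2 followed that mean across arrays, a relation looked at after the values were seen. Pearson's r was 0.911 (two-sided exact permutation p = 0.00201, adjusted 0.00804 over 4 relations) and Spearman's rho 0.881 (exact permutation p = 0.00724, adjusted 0.0290). Both were lowest on control replicate 3 and highest on control replicate 2. Without those 2 arrays, which lie farthest from the median, r was 0.705 over 6 arrays (exact permutation p = 0.108) and rho 0.714. How far the relation rests on those 2 arrays was not tested. It kept its sign but lost its call on the fewer arrays. It also lost its call without control replicate 3 alone (r = 0.798, adjusted permutation p = 0.133) or control replicate 4 alone (r = 0.933, adjusted permutation p = 0.0643), and for deviations from the group means (r = 0.894, adjusted permutation p = 0.174). Within groups of 4, r was 0.057 on daDREAM and 0.955 on control arrays.

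**Figure D5:**
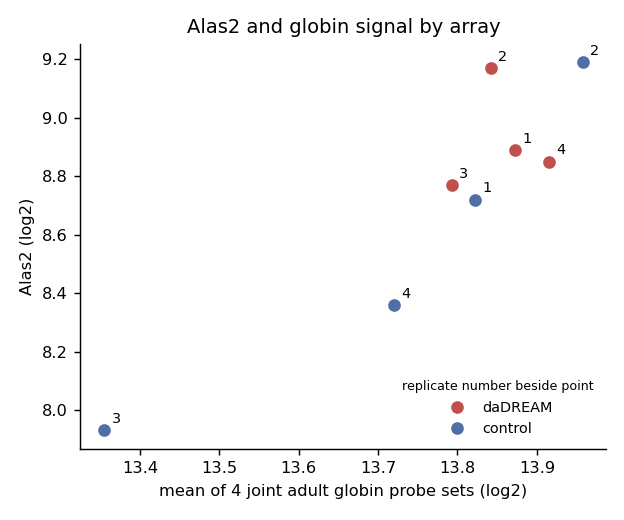
Alas2 (log2, vertical axis) against the mean of 4 probe sets shared by adult globin genes (log2, horizontal axis), 1 point per array with its replicate number. Control replicate 3 is lowest on both axes at 13.36 and 7.93, and the daDREAM arrays lie between 13.79 and 13.92.

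Of the other relations computed, Alas1 with the mean of Nr1d1 and Dbp gave r = -0.376 and rho = -0.446 over 8 arrays (exact permutation p = 0.360 and 0.269, adjusted 0.481 and 0.359). Hmox1 with the macrophage markers gave r = 0.453 and rho = 0.515 (exact permutation p = 0.250 and 0.198, adjusted 0.481 and 0.359). Without the 2 arrays farthest from the median, r was -0.345 and 0.187, and for Alas2 with the erythroid markers 0.593. None of these 3 passed, which does not show that the measures are unrelated.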

How the data were processed

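The deposited values are on a log2 scale, 1 per probe set; RMA and affy are named in the submitters' processing notes, without a version. Quantile normalization makes differences relative to the average gene. Of 45101 probe sets, 64 controls were left out, and 34945 had a single symbol in the platform annotation. Differences were fitted with limma 3.58.1 (lmFit, eBayes, group as the only term, two-sided) in R 4.3.3 over all 18193 genes or 45037 probe sets, with Benjamini-Hochberg adjustment, and the fit was tested on simulated data. Alternatives changed the scaling, the dim filter, the moderation, array weights, the probe set of a gene, a replicate block and the arrays left out. Under a log2 value of 6 a signal was called near background. Of 18193 genes, 18029 were placed by RefSeq gene order (GRCm38.p6, no build being named for the arrays). Correlations used exact permutation over 40320 pairings (scipy 1.17.1). The members and lists were chosen with earlier results of these data known.

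Named genes are the members, Uros, in each list those that passed or the largest difference, the 2 nearest neighbours of Alad on each side, the 5 genes most and least like Alad, and the array checks; Slc25a37, Slc25a38, Fth1, Prpf4, Zfp618, Ambp, Cdc26, Rgs3 and the neighbours of other members were named after their values were seen. Of the listed genes, 19 had no single-symbol probe set and are not analysed here. The number of arrays limits the precision.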

Additional observations from a re-analysis of the deposited data

Results flagged for a closer look

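Of 66 groups of 4 arrays examined, 6 held an array far from the other 3, where chance gives about 1 in 20. Xist read 11.51 on daDREAM replicate 4, with 6.10 to 6.43 on the other daDREAM arrays; without the 3 arrays with high Xist the Alad difference was 1.23. The dimmer Urod probe set read 9.59 on daDREAM replicate 1 (others 9.40 to 9.42). The dimmest Cpox probe set, near background, read 4.68 on daDREAM replicate 2 (next 4.25) and 4.04 on control replicate 1 (next 4.24). A Fech probe set read 9.27 on control replicate 4 (next 9.57). Dbp read 9.48 on daDREAM replicate 4 (next 9.06).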

How the results depend on the processing

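The differences of Alad and Hdhd3 kept their direction under all 21 alternatives, from 1.16 to 1.38 and from 0.88 to 1.12; the Alad value of 1.16 came with the mean of all probe sets of a gene. The count of genes past the limma test, 364, was 672 with the replicate number as a block, 697 with the probe set of largest SD, 213 without the arrays with high Xist, 98 without those with the most Gh, 227 without those with the most 18S, 171 without those with high Acta1, and 229 to 349 without 1 array at a time (229 without daDREAM replicate 2 and 236 without daDREAM replicate 3). The count of listed genes, 6, was 15 with the block, 15 with the probe set of largest SD, 2 with the arrays highest in Gh left out and 3 to 6 without 1 array at a time. Titles give replicate numbers only, and whether equal numbers pair the samples was not tested. Deviations of arrays with the same number correlated at 0.21, 0.01, 0.33 and 0.36, and those of other pairs from -0.28 to 0.31. Not every array correlated best with its own number. Calls of Cp, Arntl, Per1 and Per2 were lost under some alternatives, with adjusted p up to 0.150, 0.218, 0.323 and 0.119; for alternatives that keep all arrays the cause was not tested. Ppox turned to -0.11 with the mean of its probe sets and to -0.59 with the probe set of largest SD, which is a dim one. With that choice of probe set, 3 members passed limma, Ppox among them as lower, against 2 in the main setting. Over all genes 697 passed with that choice, against 364. Array number and dim signal limit what the other members show.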
